A study of Mus musculus with 10 samples.

Results

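In 0 h samples of NIH3T3 cells, a mouse fibroblast line, 100 genes had fewer exon reads per intron read at 33 than at 38 °C. Most genes had more in these samples. The 100 genes were chosen by their exon-to-intron ratio in the 0 h samples: of 38087 genes in the tables, 8330 had at least 100 exon and 100 intron reads in each of 4 columns of counts, and the 100 with the smallest value of the larger of the 2 differences between 33 and 38 °C were kept. In the samples taken later, which had no part in the choice, their median log2 ratio went from 0.24 at 1 h to -0.03 at 9 h after a move to 33 °C, and from 0.30 to 0.51 after a move to 38 °C. From 1 to 9 h the fitted ratio went down after the move to 33 °C for 75 of the 100 genes and up after the move to 38 °C for 68. Of 11155 genes tested, 4383 and 3807 did so. At 9 h 87 of the 100 were lower at 33 °C in both pairs of columns, against 47.7% of the 8230 other genes with enough reads. The median difference of those other genes, 33 minus 38 °C, was then -0.05, so their higher ratio at 33 °C was not repeated.

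The cells were wild type, carried no transgene and received no agent. After 4 h at 37 °C, where they were seeded, they spent 16 h at 38 or 33 °C before the temperature was switched, and total RNA depleted of ribosomal RNA was sequenced 0, 1, 3, 6 and 9 h later. Cooling from 38 to 33 °C is the downshift here, and warming from 33 to 38 °C the upshift, so the 0 h downshift sample is at 38 °C and the 0 h upshift sample at 33 °C. Each time and course has 1 sample (10 in all), and nothing in the labels names separate cultures. Each sample has 2 columns of counts from numbered series (downshift 5 and 11, upshift 2 and 13), which were added. The downshift samples of 1 and 3 h have a further series, 10, which was left out of these sums and added in an alternative fit. A column held 22403625 to 48004854 exon reads and 15313374 to 25233405 intron reads. Of the fixed markers of other cell types, Epcam, Krt5 and Krt18 of epithelium, Ptprc and Cd3e of immune cells, Kdr of endothelium, Myod1, Myog and Ckm of muscle, and Tubb3, Gfap and Snap25 of neural cells stayed below 0.1 CPM in every sample (CPM, counts scaled by the size of the sample's exon library). These are 3 of 6, 2 of 5, 1 of 4, 3 of 4 and 3 of 3 genes of their lists that had counts. The neural list names 4 genes, of which only 3 had counts and entered its sum. The whole lists summed to 32.74 to 38.85 CPM in the downshift and 48.34 to 58.22 in the upshift for epithelium, 13.19 to 16.61 and 12.48 to 15.82 for immune cells, 2.511 to 3.957 and 3.245 to 5.364 for endothelium, 2.121 to 2.737 and 1.048 to 1.859 for muscle, and at most 0.02847 and 0.03645 for neural cells. The part of such cells in the results was not tested. The 11 fibroblast markers summed to between 19520 and 20800 CPM in the downshift and between 25650 and 31820 in the upshift.

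Intron reads in total RNA come mostly from transcripts that are still being made or are not yet spliced, and exon reads come mostly from finished mRNA. Their ratio therefore falls when splicing is slower, when introns are kept, or when the finished mRNA is broken down faster, and it also falls for a time when transcription begins to rise. Some transcripts keep an intron and wait in the nucleus, and others take up a poison exon, a short exon with a stop codon that sends the mRNA to nonsense-mediated decay. Many splicing factors, the SR proteins among them, control their own level with such exons.

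Of the 100 genes, 17 have an annotated nonsense-mediated decay transcript whose stop codon lies in an exon that no coding transcript of the gene uses, against 744 of the 8209 other genes with enough reads and an annotation (9.06%). The first bases of such exons, from the exon's 5′ end to the stop codon, are given for 5 genes that recur in the results, because this is where an alternative splice would end the reading frame. They come from GENCODE M21 (GRCm38), and the capitals mark the stop codon. Counts per gene do not show whether the exon was used.
Srsf7, chr17:80205054-80205081, minus strand: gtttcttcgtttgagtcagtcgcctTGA
Tial1, chr7:128447071-128447107, minus strand: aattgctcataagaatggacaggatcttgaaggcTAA
Trim27, chr13:21190593-21190660, plus strand: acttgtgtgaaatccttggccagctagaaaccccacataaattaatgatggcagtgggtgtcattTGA
Mettl16, chr11:74795752-74795814, plus strand: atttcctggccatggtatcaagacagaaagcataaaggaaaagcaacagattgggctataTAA
Lman2l, chr1:36444099-36444142, minus strand: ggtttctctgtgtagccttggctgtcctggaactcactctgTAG

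The values that chose the genes are given as a description. The median difference at 0 h (33 minus 38 °C, log2 ratio) was -0.65 between series 2 and 5 and -0.62 between series 13 and 11, whereas the median of all 8330 genes was 0.32 and 0.24. Of these 8330 genes, 927 were below 0 in both. Rmi2, a subunit of the complex that dissolves crossed DNA strands, had differences of -2.97 and -2.64. It was followed by the long noncoding RNA AC117663.1 (2700038G22Rik in GENCODE M21) with -2.15 and -1.78, and by Rdm1, a protein with a RAD52 motif, with -1.91 and -1.46. Ubxn2b, a cofactor of the p97 segregase, had -1.28 and -1.62. For Lars2, the mitochondrial leucyl-tRNA synthetase, the values were -1.02 and -4.65, and series 11 held 27157 exon reads at 0 h against 1221 in series 5. Just inside the limit were Rxrb, Foxm1, Zfp788, Tmem183a and Cep55, whose larger differences ran from -0.42 to -0.41. The genes just outside, 2310079F23Rik, Ccdc111, Birc5, Ncoa5 and Smarcal1, had -0.40 to -0.39. At 0 h exon CPM was lower at 33 °C in 98 of the 100 genes (median log2 difference -0.85), and intron CPM was lower in 59 and higher in 41 (median -0.17). Among the 8230 other genes the medians were 0.04 for exons and -0.25 for introns.

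After the shifts the median ratio of the 100 genes moved toward its value at the other temperature. In the downshift the median log2 ratio in series 5 went from 0.67 at 0 h to 0.21, 0.20, 0.11 and 0.02 at 1, 3, 6 and 9 h. In series 11 it went from 0.51 to 0.25, 0.15, 0.03 and -0.17. In the upshift series 2 went from -0.02 to 0.40, 0.55, 0.65 and 0.65, and series 13 from -0.12 to 0.27, 0.26, 0.34 and 0.38. At 9 h the downshift median over both series was -0.03, against -0.07 in the 0 h sample at 33 °C, and the upshift median was 0.51, against 0.65 in the 0 h sample at 38 °C. In the upshift more of the way was covered in the first hour than afterwards. The 0 h values chose the genes, so the step from 0 to 1 h cannot be told apart from a return toward typical values, and every test below leaves the 0 h samples out. In bulk RNA, fewer cells that use a gene and less RNA per cell cannot be told apart.

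**Figure D1:**
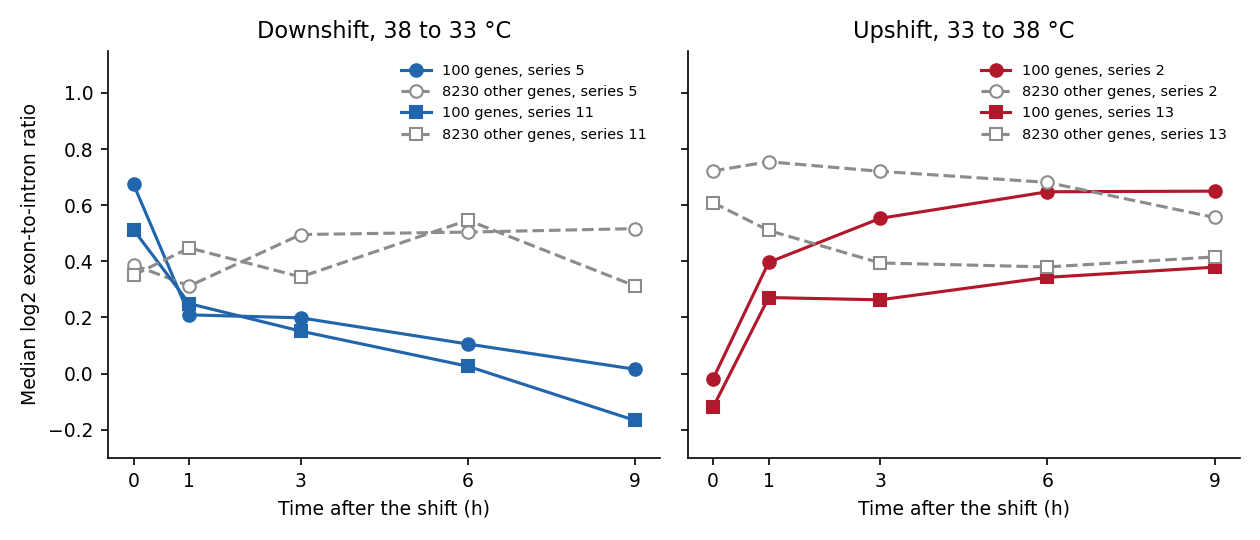
Median log2 exon-to-intron ratio of the 100 genes (filled points) and of the other genes with enough reads (open points) against time after the shift, for each series of columns. The 100 genes fall from 0.67 and 0.51 to 0.02 and -0.17 in the downshift and rise from -0.02 and -0.12 to 0.65 and 0.38 in the upshift, and the 0 h points are the values that chose them.

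The first question was whether the cells at 33 °C ended with lower ratios than the cells at 38 °C once both had been moved. With downshift minus upshift as the difference, the median gap of the 100 genes was 0.66 at 0 h, -0.05 at 1 h, -0.16 at 3 h, -0.40 at 6 h and -0.53 at 9 h. The median of the 8230 other genes was -0.28, -0.22, -0.12, -0.0029 and -0.05 at the same times. The 100 genes thus lay above the others at 1 h, close to them at 3 h and below them at 6 and 9 h. At 9 h 92 of the 100 genes were lower at 33 °C, and in 87 both pairs of series, 5 with 2 and 11 with 13, had that sign, as did 47.7% of the 8230 other genes. At 6 h the 2 pairs were both below 0 for 65 genes, against 29.1% of the other genes, and at 3 h for 60 genes, against 54.8%.

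The late ratio, over 6 and 9 h, was called lower at 33 °C for 41 of the 100 genes and higher for 1 at an adjusted p below 0.05, against 3.83% and 2.22% of the 11155 genes tested. All 100 genes passed the count filter of that test. The median late difference was -0.45 (log2), against -0.01 over all tested genes. In 78 genes both samples at 33 °C lay below both at 38 °C, where 34.3% of all tested genes did. P-values here measure scatter around a fitted course with 1 sample per time, not the spread between cultures. The call rests on all 4 late samples: without the downshift 6 h sample it was made for 2 genes, and without the downshift 9 h, the upshift 6 h or the upshift 9 h sample for 0, each of which leaves 1 sample in an arm. At an unadjusted p below 0.05 these fits gave 63, 46, 49 and 53 genes, and the median stayed between -0.54 and -0.35. It was made for 21 genes in series 11 and 13 alone, and for 17 to 23 with limma or without sample terms.

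**Figure D2:**
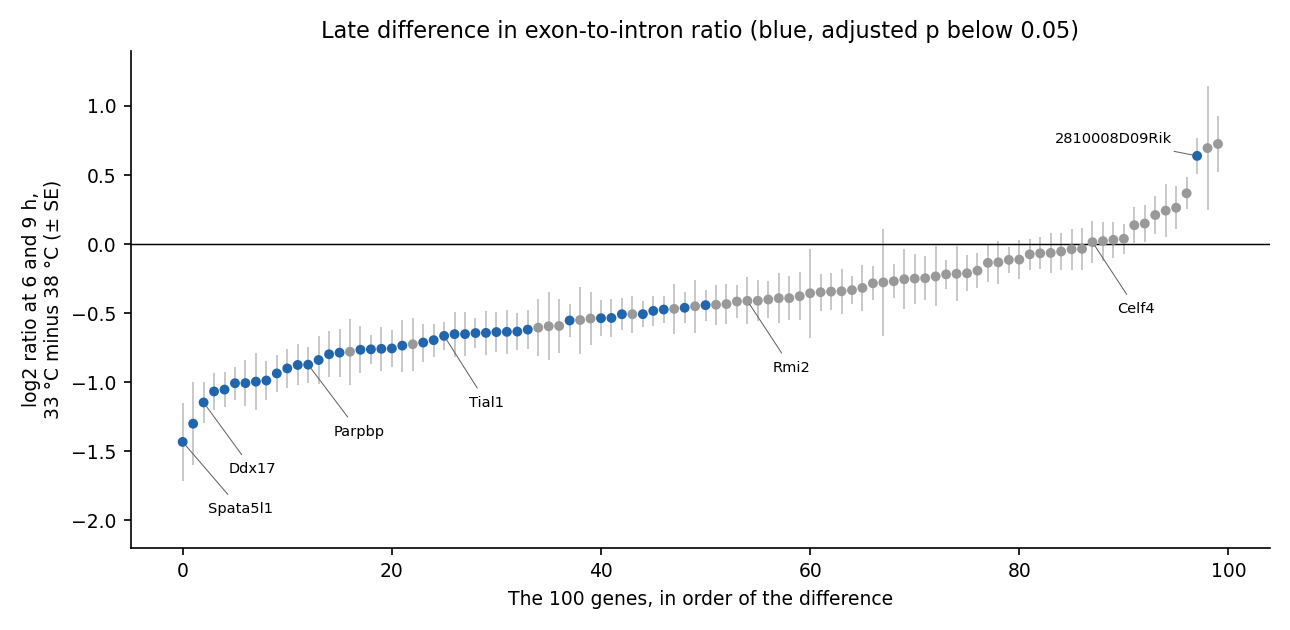
Fitted difference in log2 exon-to-intron ratio at 6 and 9 h, 33 °C minus 38 °C, for each of the 100 genes in order of size, with its standard error. Blue points passed an adjusted p of 0.05: 41 lie below 0, with Spata5l1 lowest at -1.43, and 1 lies above 0, 2810008D09Rik at 0.64.

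The second question was how the ratio changed within each course from 1 to 9 h. The fitted change in the downshift minus that in the upshift was called below 0 for 34 of the 100 genes and above 0 for 4, against 5.32% and 18.8% of all tested genes. The median was -0.46 for the 100 genes and 0.21 for all tested genes. These values count intron reads on the scale of the exon libraries. With intron reads on a scale of their own the median of all genes moved to -0.05, the calls over all genes went from 594 lower and 2098 higher to 1274 lower and 1037 higher, and among the 100 genes 51 were called lower and 1 higher. The distance of the 100 genes' median from that of all genes was -0.67 on the first scale and -0.66 on the second. Without the downshift 1 h sample 18 genes were called lower, without the downshift 9 h sample 19, and without the upshift 1 h sample 10.

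In the downshift alone the ratio was called lower for 17 of the 100 genes and higher for 0 (2.51% and 6.62% of all tested genes), with a median change of -0.30. With series 10 added, 10 were called lower. At an unadjusted p below 0.05, 5 were higher in edgeR and 5 in DESeq2, which called 0. In the upshift alone it was called higher for 15 and lower for 2 (1.58% and 7.64% of all tested genes), with a median of 0.16. The fitted change was below 0 in the downshift for 75 of the 100 genes, against 4383 of the 11155 tested. It was above 0 in the upshift for 68, against 3807. Both held for 58 of the 100 genes, and 5 were called in both courses, counts that were made for the 100 genes only. The called counts for single courses hang on single samples. For the downshift they were 1 without its 1 h sample, 3 without its 6 h or its 9 h sample, and 27, 26 and 11 without the upshift 1, 3 and 6 h samples. For the upshift they were 1 without its 1 h sample, 3 without its 6 h sample and 9 without the downshift 6 h sample.

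The genes differed in the sign of the gap at 1 h. In 37 genes it was below 0 in both pairs of series and in 33 above 0 in both, against 53.9% and 17.5% of the 8230 other genes, and in 30 the pairs had opposite signs. These groups were made from the 1 h values and so carry no test. The fitted change from 1 to 9 h uses the same values. How its calls fall between the groups is therefore partly fixed by the grouping and is given as a description. In the 37 genes, the early group, the median gap went from 0.64 at 0 h to -0.41 at 1 h and -0.54 at 9 h. In the 33 genes, the late group, it went from 0.68 to 0.50, 0.15, -0.25 and -0.45 at 1, 3, 6 and 9 h. Of the 34 genes called lower on the change from 1 to 9 h, 23 were in the late group and 3 in the early one. All 4 genes called higher, Lrif1, Zfp788, Zfp655 and Tmem183a, were in the early group. Of 22 alternative fits the call was lost in 3 for Lrif1, 9 for Zfp788, 14 for Zfp655 and 12 for Tmem183a, and with intron reads on their own scale only that of Lrif1 was made among these 4. Of the 41 called on the late ratio, 19 were in the early group and 7 in the late one.

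**Figure D3:**
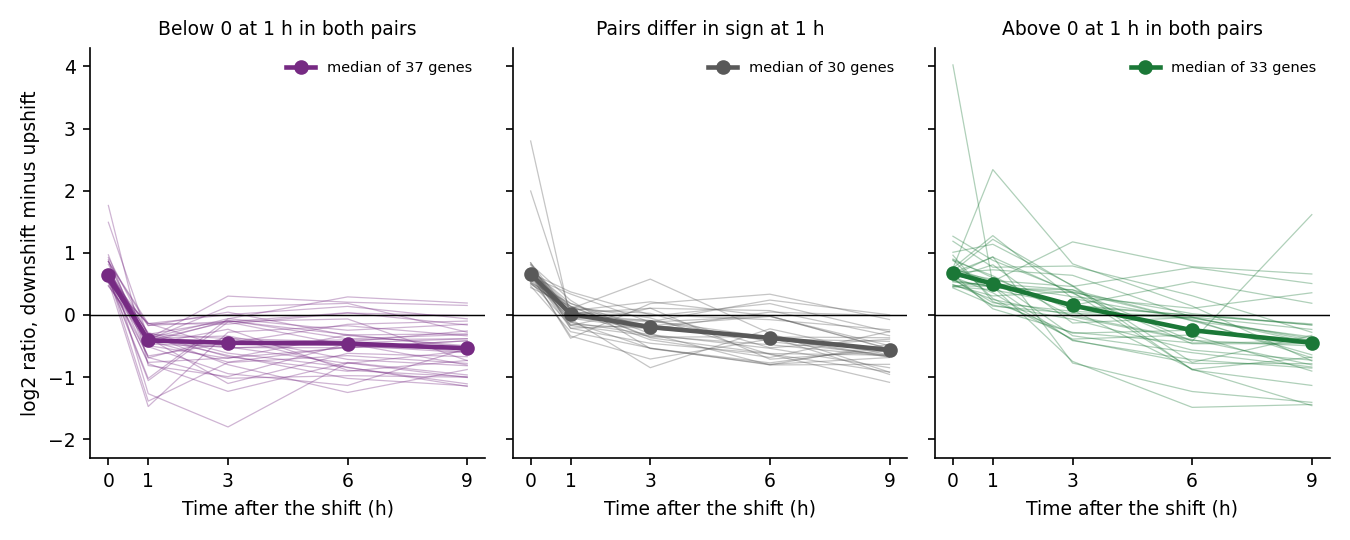
Difference in log2 exon-to-intron ratio between the courses (downshift minus upshift) for each of the 100 genes (thin lines) and the median (thick line), by the sign of the difference at 1 h in the pairs of series. The 37 genes on the left are below 0 from 1 h on in the median, the 33 on the right reach a median of -0.25 at 6 h, and the 0 h values chose the genes.

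Zfp655, a zinc finger gene, shows the early form. Its ratio in the downshift was 1.55 at 0 h and 0.746, 0.971, 1.03 and 0.905 at 1, 3, 6 and 9 h, and in the upshift it was 1.00 and then 1.95, 1.65, 1.62 and 1.55. The 2 courses had exchanged their levels within an hour and did not overlap after it. In the first hour its intron reads went from 47.7 to 81.5 CPM in the downshift and from 63.3 to 41.7 in the upshift, and its exon reads from 74.1 to 60.8 and from 63.4 to 81.4. The 0 h values chose the gene, so these steps are a description. The late ratio was lower at 33 °C (-0.71 ± 0.14, adjusted p = 0.0206), and the change from 1 to 9 h went the other way (0.64 ± 0.21, adjusted p = 0.0441). Lrif1, which binds nuclear receptors and chromatin, gave a ratio of 0.594 at 1 h of the downshift and 1.21 at 1 h of the upshift, but 0.861 and 0.754 at 9 h. Its gap thus went from -1.02 at 1 h to 0.19 at 9 h, and its late difference of 0.24 ± 0.19 did not pass the test (adjusted p = 0.479). The gaps of Zfp788 and Tmem183a went from -1.47 to -0.34 and from -0.66 to -0.10, and their late differences of -0.25 ± 0.22 and -0.11 ± 0.10 did not pass either (adjusted p = 0.514 and 0.505).

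Ddx17, a DEAD-box RNA helicase of the splicing and transcription machinery, shows the late form with 11797 to 32204 exon reads per sample. Its ratio in the downshift was 1.26, 1.25, 1.07, 0.804 and 0.594 at 0, 1, 3, 6 and 9 h, and in the upshift it was 0.675, 0.828, 1.01, 1.47 and 1.63. The courses crossed between 3 and 6 h, and each step after 1 h went in the direction of the course. Exon reads fell from 408 to 190 CPM in the downshift and rose from 200 to 469 in the upshift, while intron reads lay between 280 and 324 CPM in all 10 samples. With intron reads on a scale of their own, not that of these CPM, the intron difference, downshift minus upshift, was called higher (0.48 ± 0.12, adjusted p = 0.0340). The changes in the ratio were -1.02 ± 0.14 and 1.03 ± 0.14 (adjusted p = 0.00340 and 0.00169), and their difference of -2.04 ± 0.20 (adjusted p = 0.000167) was called in all 22 alternative fits. The late difference was -1.15 ± 0.15 (adjusted p = 0.00784). Kdelr3 overlaps the gene on the other strand.

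**Figure D4:**
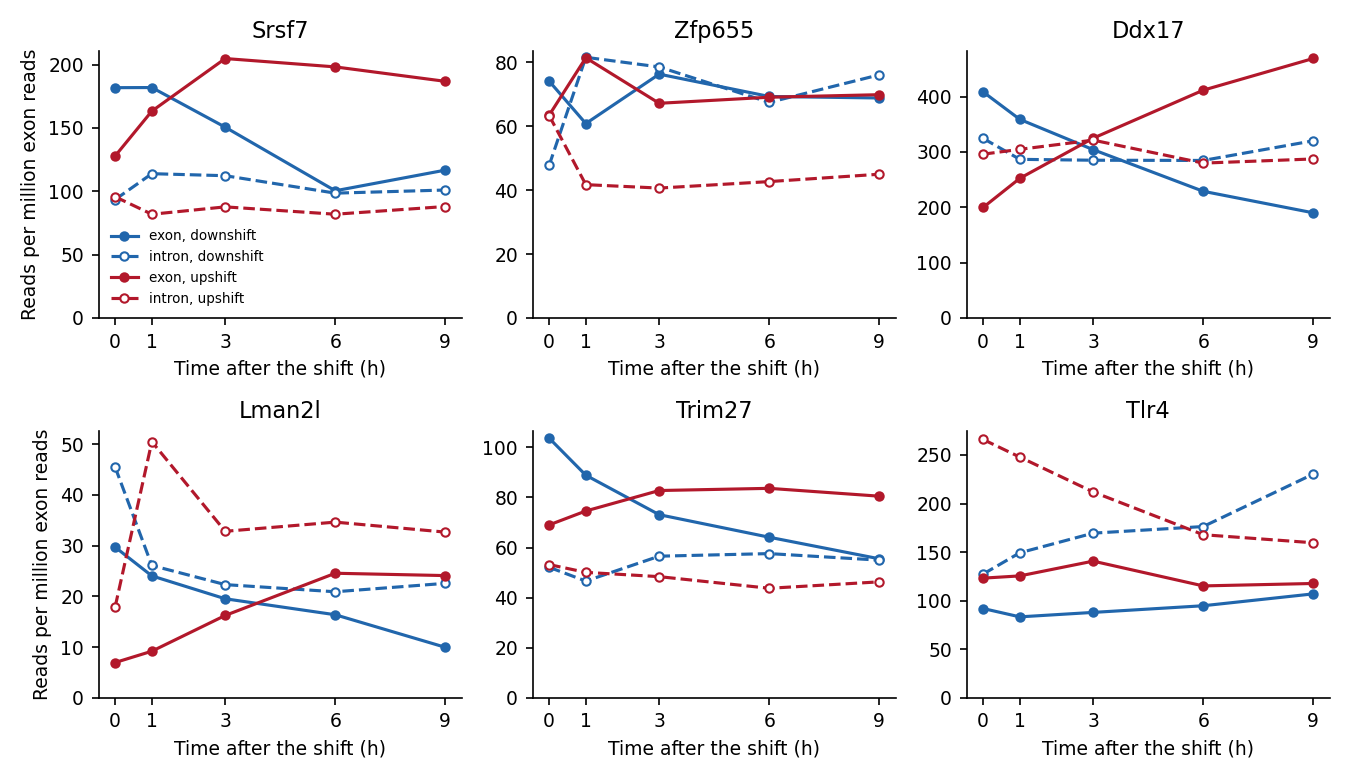
Exon reads (solid lines) and intron reads (dashed lines) in CPM of the exon library for 6 of the 100 genes against time, in the downshift (blue) and the upshift (red), with 1 sample per point. In Ddx17 the exon lines cross and the intron lines lie between 280 and 324, in Tlr4 the intron lines cross, and in Zfp655 the intron lines part within 1 h.

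Across the 100 genes the exon reads carried more of the change than the intron reads. The exon change from 1 to 9 h, downshift minus upshift, was called lower for 53 genes and higher for 0, against 13.3% and 16.3% of all tested genes, with a median of -0.63 against 0.01. At an unadjusted p below 0.05, 2 were higher in edgeR and 2 in DESeq2, which called 0. The intron change was called higher for 11 and lower for 5, against 7.86% and 5.00%, shares near those of all genes, with a median of 0.02 against 0.06. All fitted intron changes put intron reads on a scale of their own, while the ratio counts them on that of the exon libraries. Exon and intron values therefore do not add up to the ratio, and the joint counts that follow cross both scales. Of the 34 genes with a lower ratio, 28 were also called lower on exon reads and 10 higher on intron reads, 2 had neither call, and none was called lower on intron reads. A further 25 genes were called lower on exon reads with no such call on the ratio. Exon reads were called lower for 40 genes in the downshift and higher for 31 in the upshift, against 8.23% and 7.62% of all tested genes, and 19 had both calls. The joint counts in this paragraph were made for the 100 genes only, so no share over all tested genes stands beside them. Without the downshift 1 h sample the exon count was 27, and without the upshift 1 h sample 20. The intron count of 11 was 7 without the downshift 1 h sample, 5 without the downshift 6 h or 9 h or the upshift 6 h sample, 6 without the upshift 9 h sample, and 1 without the upshift 1 h sample.

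**Figure D5:**
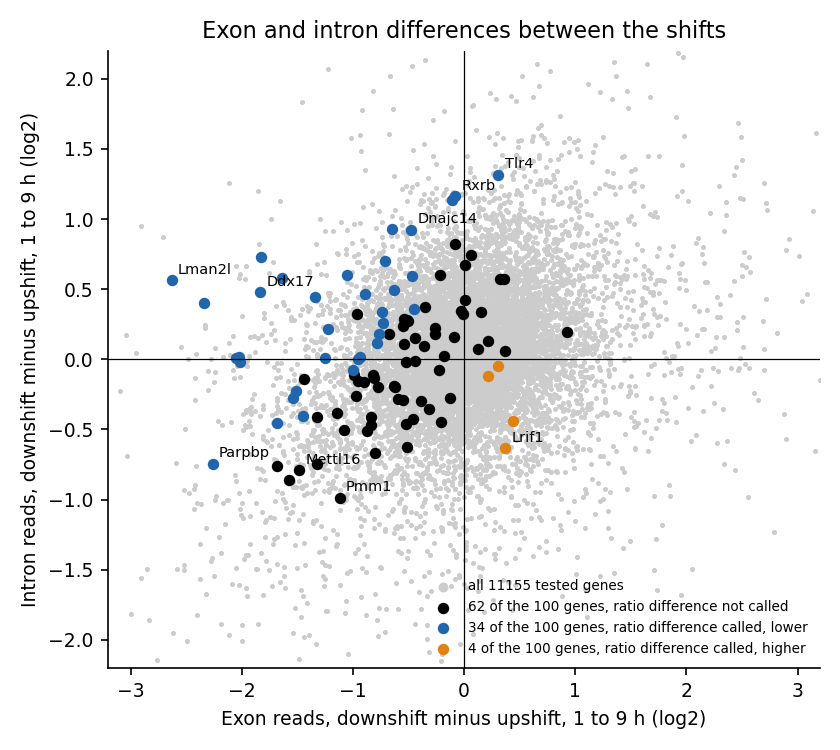
Fitted change from 1 to 9 h, downshift minus upshift, of exon reads (horizontal axis, log2) and intron reads (vertical axis, log2) for all 11155 tested genes (grey) and the 100 genes (coloured by the call on the ratio). Of the 100 genes, 85 lie left of 0 on exons, while 45 lie below and 55 above 0 on introns. Intron reads stand on a scale of their own here, unlike in the ratio.

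Some genes reached a lower ratio through their introns. Tlr4, the receptor for lipopolysaccharide, had 127, 149, 170, 176 and 230 CPM of intron reads at 0, 1, 3, 6 and 9 h of the downshift, and 266, 248, 212, 168 and 160 in the upshift. The intron reads rose at 33 °C and fell at 38 °C, with an intron difference of 1.32 ± 0.13 (adjusted p = 0.00212). Its exon difference was 0.31 ± 0.14 (adjusted p = 0.133). Rxrb, a retinoid X receptor, had differences of 1.16 ± 0.25 on introns and -0.08 ± 0.24 on exons (adjusted p = 0.0182 and 0.823). Its exon reads fell in both courses from 1 to 9 h, from 43.7 to 32.2 CPM in the downshift and from 44 to 36.0 in the upshift. At 6 h they were 31.2 CPM in the downshift and 43.8 in the upshift, so its late ratio did not rest on introns alone. Slc39a13, a zinc transporter, and Dnajc14, a J-domain cochaperone, had intron differences of 0.93 ± 0.15 and 0.93 ± 0.14 (adjusted p = 0.00710 and 0.00498) together with lower exon reads. Dnajc14 overlaps Sarnp on its own strand, so its reads are uncertain. In other genes both exon and intron changes were lower in the downshift than in the upshift. Pmm1, a phosphomannomutase, Uhrf2, a ubiquitin ligase that reads modified DNA, Mettl16, an RNA methyltransferase, Spag1, which helps to assemble dynein arms, and Rdm1 had intron differences from -0.99 to -0.66 and exon differences from -1.68 to -0.80, all called.

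The largest changes in the ratio were in genes of mixed function. Lman2l, a lectin of the early secretory pathway, had ratios of 0.653, 0.922, 0.875, 0.783 and 0.442 in the downshift and of 0.388, 0.182, 0.495, 0.709 and 0.738 in the upshift. The upshift dipped at 1 h, where its intron reads went from 17.96 to 50.5 CPM, before it rose. The difference was -2.91 ± 0.42 (adjusted p = 0.000876), but the late difference was -0.28 ± 0.39 (adjusted p = 0.708), and the courses crossed between 6 and 9 h. The gene 2810006K23Rik had ratios of 2.21, 2.93, 2.35, 1.38 and 1.17 against 1.36, 1.26, 1.70, 2.54 and 2.57, with a difference of -2.49 ± 0.31 (adjusted p = 0.000482). The gene 1190005F20Rik (Trmt1l in GENCODE M21) went from 1.28 at 1 h to 0.386 at 9 h of the downshift, and its downshift change of -1.73 ± 0.24 (adjusted p = 0.00340) was the largest called among the 100 genes. Spata5l1 had the lowest late difference, -1.43 ± 0.28 (adjusted p = 0.0227), with ratios of 2.57 and 1.95 at 33 °C and 7.21 and 5.31 at 38 °C. Differences of -1.80 to -1.39 were also called for 9030617O03Rik (Dglucy in GENCODE M21), C330018D20Rik, AC152453.2 (1810014B01Rik), Zfp931 and Eri2, an exonuclease family member. Lman2l, 1190005F20Rik, 9030617O03Rik, AC152453.2 and Eri2 overlap genes on the other strand, so their reads are uncertain. For AC152453.2 these include Hsp90b1, an endoplasmic reticulum chaperone.

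Of 12 genes of RNA processing, grouped after the 100 genes were known, 8 were called lower on the late ratio, 5 on the change from 1 to 9 h and 8 on exon reads, and none was called higher on any of these. For all 100 genes the counts were 41, 34 and 53, and 3.83%, 5.32% and 13.3% of all tested genes had these calls. Srsf7, an SR protein that guides splice-site choice, had ratios of 1.95, 1.60, 1.34, 1.02 and 1.16 in the downshift and 1.34, 1.99, 2.34, 2.42 and 2.12 in the upshift. From 1 h on, every downshift sample lay below every upshift sample. The late difference was -1.05 ± 0.13 (adjusted p = 0.00784) and the exon difference -0.94 ± 0.25 (adjusted p = 0.0243), with 0.02 ± 0.12 on introns (adjusted p = 0.944). Tial1 and Mettl3 are named after their values were seen. Tial1, an RNA-binding protein of stress granules, had a late difference of -0.67 ± 0.10 (adjusted p = 0.00972). Mettl3, the catalytic subunit of the m6A methyltransferase, had -0.64 ± 0.16 (adjusted p = 0.0475) and Mettl16 -0.51 ± 0.12 (adjusted p = 0.0357). Celf4, a splicing regulator, was called on the change from 1 to 9 h (-1.02 ± 0.29, adjusted p = 0.0230) but had a late difference of 0.01 ± 0.15. Magohb, of the exon junction complex, passed neither test, with a late difference of -0.38 ± 0.17 (adjusted p = 0.218).

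Of the 17 genes with a premature-stop exon, 8 were called lower on the late ratio and 0 higher, against 33 and 1 of the other 83. On the change from 1 to 9 h, 7 of the 17 were called lower and 2 higher, against 27 and 2 of the 83. On exon reads 11 of the 17 and 42 of the 83 were called lower. Over all tested genes 3.83%, 5.32% and 13.3% were called lower in these comparisons, and 2.22%, 18.8% and 16.3% higher. The median late difference of the 17 genes was -0.41, against -0.45, and the difference between these groups was not tested. Trim27, a RING-finger protein chosen here after its values were seen, had ratios of 1.99, 1.91, 1.29, 1.113 and 1.01 in the downshift and 1.298, 1.49, 1.71, 1.91 and 1.74 in the upshift, with a difference of -1.13 ± 0.19 (adjusted p = 0.00212).

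Genes of cell division and DNA repair, likewise grouped after the 100 genes were known, numbered 15, of which 10 were called lower on exon reads, 7 on the late ratio and 6 on the change from 1 to 9 h, with none higher. The shares in all 100 genes were 53, 41 and 34 of 100. Parpbp, a regulator of homologous recombination, had ratios of 0.409, 0.405, 0.351, 0.286 and 0.248 in the downshift and 0.244, 0.369, 0.363, 0.445 and 0.526 in the upshift. Its exon difference was -2.26 ± 0.26 (adjusted p = 0.00147) and its ratio difference -1.26 ± 0.20 (adjusted p = 0.00135). Cep55, which acts at the end of cell division, had an exon difference of -1.68 ± 0.26 and a ratio difference of -0.93 ± 0.17 (adjusted p = 0.00331 and 0.00266). Ncapg, a condensin subunit, had -0.73 ± 0.22 and -0.70 ± 0.18 (adjusted p = 0.0368 and 0.0151). Foxm1, a transcription factor of the G2 and M phases, was called on the ratio at -0.54 ± 0.18 (adjusted p = 0.0478) and not on exons at -0.45 ± 0.15 (adjusted p = 0.0530). In Rmi2, ranked first by the rule at 0 h, the ratio was 0.153, 0.111, 0.172 and 0.146 from 1 to 9 h of the downshift and 0.161, 0.1997, 0.201 and 0.229 in the upshift. Its late difference, -0.41 ± 0.17, did not pass the test (adjusted p = 0.171), while its exon difference of -1.08 ± 0.20 did (adjusted p = 0.00635). The fixed list of mitosis genes, of which Ncapg is the only one among the 100, moved on exon reads as well: 30 of its 37 tested genes were called lower and none higher, with TMM and with RLE scaling. Of all tested genes 13.3% were called lower on exon reads. The list fell on intron reads too, with 15 of 37 called lower and none higher, against 5.00% of all tested genes called lower. Its intron median was -0.65, while that of the 15 division genes was -0.27, with 1 called lower. Cell cycle composition was not measured, and its part in these values was not tested.

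Promoters of genes that act in late cell cycle often hold the core of the cell cycle genes homology region, TTTGAA. In windows from 250 bases before to 50 after the start, searched on both strands, it occurred for 17 of the 81 genes with a RefSeq entry (20.99%), in 14.1% of the genes with enough reads and in 17.9% of all promoters. Of the 10 division and repair genes with an entry, 6 held it. The 120 bases before the start are shown for the division genes that had a match there, a call on exon reads and 1 start, from RefSeq (GRCm38.p6), with the match in capitals.
Parpbp, chr10:88146942-88147061, minus strand: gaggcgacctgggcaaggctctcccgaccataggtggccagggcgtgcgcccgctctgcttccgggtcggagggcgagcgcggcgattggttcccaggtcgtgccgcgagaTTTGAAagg
Ncapg, chr5:45669805-45669924, plus strand: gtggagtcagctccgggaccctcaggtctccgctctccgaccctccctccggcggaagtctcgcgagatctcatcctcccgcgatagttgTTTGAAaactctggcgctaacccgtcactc
Ankle1, chr8:71405892-71406011, plus strand: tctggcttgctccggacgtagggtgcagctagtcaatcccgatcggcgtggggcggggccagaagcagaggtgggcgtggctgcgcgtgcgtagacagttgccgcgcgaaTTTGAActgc
In these 3 the letters lie close to the start. A match is a description of the sequence and not a site of binding.

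Smaller groups were likewise made after the 100 genes were known. Of the 100 genes, 41 were called lower on the late ratio and 34 on the change from 1 to 9 h. Over all tested genes the shares were 3.83% and 5.32% lower, and 2.22% and 18.8% higher. Of 6 protein-folding genes 4 were called lower on the change from 1 to 9 h and 1, Ubxn2b, on the late ratio, where its ratios were 0.533 and 0.534 at 33 °C against 1.08 and 1.18 at 38 °C (-1.07 ± 0.13, adjusted p = 0.00784). Of 8 mitochondrial genes 3 were called lower on the late ratio, among them Taco1, an activator of mitochondrial translation, at -0.90 ± 0.14 (adjusted p = 0.00996). Taco1 was an early gene, with ratios of 0.103 and 0.248 at 1 h, and in the upshift its ratio then fell by 0.89 ± 0.25 (adjusted p = 0.0412). Lars2 swung between libraries, with 28378 exon reads at 0 h and 1360, 815, 550 and 2404 later in the downshift, against 731 to 1168 in the upshift, and passed no test. Of 9 zinc finger genes 2 were called lower on the late ratio, and on the change from 1 to 9 h 1 was lower and 2 higher, or 2 lower and none higher with intron reads on their own scale. Among 7 genes with a noncoding or processed transcript as biotype, 2810008D09Rik (Snhg20 in GENCODE M21) was the single member called higher at 33 °C on the late ratio (0.64 ± 0.13, adjusted p = 0.0263), with 1.34 and 1.39 at 33 °C against 0.790 and 0.980 at 38 °C. It thus kept its place from before the shift, where the sample held at 38 °C had 1.44 and the one at 33 °C 1.05. In the same group AC117663.1 was called on exon reads (-0.84 ± 0.25, adjusted p = 0.0337) and not on the late ratio (-0.04 ± 0.15, adjusted p = 0.905). In all, 24 of the 100 genes had no call on the ratio, the exons or the introns in these comparisons, a count made for the 100 genes only.

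The 100 genes had less intron sequence and fewer introns than the other genes with enough reads, in the median. Their median total intron length was 13588 bases against 23831, and the median of the largest number of introns in a transcript was 6.5 against 10, while exon length was close at 4917 and 5093 bases. Of the 100, 93 were protein coding (99.2% of the others), 6 were of a long noncoding or processed transcript type (0.670%), and 9 had a symbol that begins with Zfp (2.11%). An annotated retained-intron transcript was present for 58 genes, against 66.4%, and 56 genes overlapped no other gene, against 52.98%. The intron and exon calls of genes that overlap another gene are uncertain, as how strand entered the counting is not given in these sources. This includes named genes whose overlap is not mentioned above. Foxm1 and Magohb overlap genes on their own strand. Parpbp, Ncapg, Slc39a13, Mettl3, Trim27, Rmi2, Celf4, Spag1 and Taco1, among others, overlap genes on the other strand. Among the 56 genes free of overlap, 25 were called lower on the late ratio, 18 on the change from 1 to 9 h and 27 on exons. For all 100 genes the counts were 41, 34 and 53, and of all tested genes 3.83%, 5.32% and 13.3% had these calls. The share among other genes free of overlap was not counted, so the part of overlap in the calls was not tested.

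Fixed lists of genes of RNA processing and of other programmes were read the same way. Over all tested genes 3.83% were called lower and 2.22% higher on the late ratio. On the late ratio 5 of 20 SR proteins were called lower, Srsf7 among them, and none higher, or 5 lower and 2 higher with intron reads on their own scale. For the CLK, DYRK and SRPK kinases the counts were 0 lower and 1 higher of 11, for hnRNPs 1 and 1 of 21, for the core spliceosome 1 and 2 of 49, for the minor spliceosome 0 and 0 of 12, for decay and the exon junction complex 1 and 0 of 19, for the nuclear exosome 0 and 0 of 17, and for cleavage and polyadenylation 0 and 0 of 19. Of the other lists, mitosis had 3 and 0 of 37, heat shock 1 and 0 of 27, endoplasmic reticulum chaperones 1 and 1 of 21, p53 targets 0 and 0 of 19, and immediate early genes 0 and 1 of 19. Median late differences ran from -0.20 for mitosis to 0.10 for hnRNPs, against -0.01 for all tested genes and -0.45 for the 100. On the change from 1 to 9 h, where 34 of the 100 genes were called lower, several fixed lists also had lower calls. Of all 11155 tested genes, 594 were called lower (5.32%) and 2098 higher (18.8%) on this change. With intron reads on their own scale these counts were 1274 and 1037. Heat shock had 12 lower and 1 higher of 27 (17 and 1 with intron reads on their own scale), mitosis 10 and 1 of 37 (20 and 0), endoplasmic reticulum chaperones 7 and 2 of 21 (14 and 2), p53 targets 3 and 0 of 19 (6 and 0), and immediate early genes 1 and 1 of 19 (2 and 1). Their medians were -0.60, -0.43, -0.45, -0.50 and -0.21, against 0.21 for all tested genes and -0.46 for the 100. The lists of RNA processing had more higher than lower calls, or none, on the exon library scale, where all tested genes also had more higher calls. For hnRNPs, cleavage and polyadenylation and the minor spliceosome lower calls were the more frequent with intron reads on their own scale, as for all tested genes. The counts were 1 lower and 15 higher of 49 for the core spliceosome (2 and 4 on the own scale), 2 and 8 of 21 for hnRNPs (5 and 1), 1 and 7 of 20 for SR proteins (4 and 4), 0 and 3 of 11 for the kinases (0 and 2), 0 and 3 of 19 for decay and the exon junction complex (1 and 2), 0 and 5 of 17 for the exosome (2 and 2), 1 and 4 of 19 for cleavage and polyadenylation (3 and 2), and 0 and 0 of 12 for the minor spliceosome (1 and 0). Their medians ran from 0.09 to 0.41, and from -0.18 to 0.15 on the own scale.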

How the data were processed

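Total RNA of 10 samples (1 per time and course) was sequenced. Per the submitters' processing notes, STAR, bedtools and the build mm10 were used, with no versions named. The authors deposited estimated counts of exon and intron reads per gene, although the tables' names speak of RPKM, and the values were rounded to whole numbers. Which annotation served, and whether strand entered the counting, is not stated in these sources.

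The 2 main columns of a sample were added, with an offset per gene for their mix. In edgeR 4.0.16 (quasi-likelihood test, TMM, R 4.3.3) the 8 samples from 1 to 9 h were fitted with a slope on log2(h + 1) per course, and the late comparison with 4 groups. The ratio model held sample terms and intron reads on the exon library scale. The test of intron reads alone scaled them by the TMM of the intron reads. Genes with a mean of at least 20 exon and 20 intron reads were tested (11155), with Benjamini-Hochberg adjustment over all and calls at 0.05. Values are log2 changes from 1 to 9 h ± SE. The functions were tested on simulated data. DESeq2 1.42.0 and limma 3.58.1 served as alternatives. Genes were named by rule: the 10 first by the larger 0 h difference, 5 on each side of the limit, the largest called changes per comparison, and members of 13 fixed lists. The members and the lists were chosen with earlier results of these data known. Splice-site sequences were not analysed here.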

Additional observations from a re-analysis of the deposited data

How the results depend on the processing

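Counts are of the 100 genes called in the direction of the main result. The ratio change between courses (34 lower) was called for 20 with limma on log2 ratios, 19 without sample terms and 8 as a step from 1 and 3 h to 6 and 9 h. Leaving out 1 sample gave 10 to 37. The downshift change (17 lower) gave 11 in series 11 and 13 alone, 10 with series 10 added, 28 with intron reads on their own scale, 1 with limma, 6 with limma and a pseudocount of 10, 7 without sample terms, 8 on linear hours and 0 as a step, and 1 to 27 without 1 sample. The upshift change (15 higher) gave 7 in series 11 and 13 alone, 3 with limma, 4 with a pseudocount of 10, 6 without sample terms, 1 on linear hours and 0 as a step, and 1 to 19 without 1 sample. The late ratio (41 lower) gave 21 in series 11 and 13 alone, 17 with limma, 19 with a pseudocount of 10 and 23 without sample terms, and 0 to 53 without 1 sample. The exon difference (53 lower) gave 20 as a step and 20 to 58 without 1 sample. The intron difference (11 higher) gave 7 in series 11 and 13 alone and 6 as a step, and 1 to 13 without 1 sample. At an unadjusted p below 0.05 the steps with 0 calls gave 27 genes for the downshift and 16 for the upshift. The cause of these moves was not tested. No median of the 100 genes above 0.1 in size, and no called ratio difference or late difference of a gene named by rule, changed sign under the alternatives run. All 100 genes were chosen again from rounded counts, and 94 from ratios of CPM. Restricting counts to genes free of overlap was added after seeing the data. No replicate numbers are shared, and with the time point as a block, which pairs the courses, 25 genes were called lower on the ratio change, 46 lower on exons and 3 higher on introns.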
